A study of Homo sapiens with 4 samples.

Results

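Circular RNAs whose host gene encodes a catalytic or regulatory subunit of the PPP family of protein phosphatases were described in radiation-resistant MDA-MB-468 cells with and without knockdown of HNRNPL. Members were all circles not classed as antisense for which at least 1 annotated gene had a symbol beginning with PPP1, PPP2, PPP3, PPP4, PPP5 or PPP6. This rule took 1587 of 211599 circles in the deposited table, and 1411 of 190152 circles that had at least 1 count. The members came from 60 host genes, 50 of them protein coding and 10 long non-coding RNAs or pseudogenes that carry a PPP symbol. Together they held 20540 of 1702290 counts, or 1.21%.

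MDA-MB-468 is an established line of human triple-negative breast cancer cells. Every one of the 4 libraries came from cells made radiation resistant by a total dose of 50 Gy given in fractions. The 2 control libraries (shCtrl replicates 1 and 2) carried a control short hairpin RNA, and the 2 knockdown libraries (shHNRNPL replicates 1 and 2) stably carried a hairpin that targets the mRNA of HNRNPL, a nuclear ribonucleoprotein that binds CA repeats and controls splicing. The labels call the libraries of a group biological replicates, the extraction protocol names a single HNRNPL hairpin, and no library of unirradiated cells was analysed here. Total RNA was copied with Induro reverse transcriptase, which can run around a circular template more than once, and was amplified with phi29 polymerase before nanopore sequencing. The question of the study was which circular RNAs depend on HNRNPL.

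PPP enzymes remove phosphate from serine and threonine in proteins. A small set of catalytic subunits (PP1, PP2A, PP2B or calcineurin, PP4, PP5 and PP6) works with a much larger set of scaffold and regulatory subunits, which choose the substrate and the place in the cell. In epithelial tumour cells these enzymes oppose kinases in mitosis, in the response to DNA damage and in growth signalling. A circular RNA arises by back-splicing, in which a splice donor is joined to an acceptor that lies upstream of it. A circle is therefore identified by its acceptor and its donor, and its count says nothing about how much linear mRNA or protein the host gene makes.

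The libraries held between 282737 and 556578 counts. Values are given as counts or as counts per 100000 library counts, in the order shCtrl replicate 1, shCtrl replicate 2, shHNRNPL replicate 1 and shHNRNPL replicate 2. Where a library has a count of 0, the limit is taken as 3 counts, or 0.635, 0.539, 1.06 and 0.768 per 100000. Such limits cover counting error only, because amplified reads without molecular identifiers are not independent molecules. shCtrl replicate 1 stood apart: circles classed as intronic took 19.7% of its counts and between 9.93% and 10.6% of the counts in the other libraries. Among the members the same class took 15.0% in shCtrl replicate 1 and 6.83%, 7.56% and 7.30% in the others, so results are also given without that library where they rest on it. No row named HNRNPL, so the knockdown rests on the labels. Of 14 markers of breast epithelium and of this line, 10 had circles, with summed levels of 144, 95.2, 65.4 and 63.2 per 100000, while KRT6A, KRT8, KRT18 and KRT19 were at 0. Of 5 fibroblast markers only FAP had counts (4, 0, 0 and 0), and all 4 leukocyte and all 3 endothelial markers were at 0. The part of these differences in the results below was not tested, and in bulk RNA fewer cells that make a circle and less of it per cell cannot be told apart.

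In structure the members were close to the other circles. Of the 1411 detected members, 68.0% were exonic circles, with a median length of 1242 nt and a median of 7 exons. Among the other detected circles that were not antisense, 64.8% were exonic, the median length was 1346 nt and the median number of exons was 6. The back splice was flanked by AG and GT in 86.0% of members and 85.9% of the others. A count in each of the 4 libraries was found for 207 members (14.7%) and for 9.95% of the others; these shares are a description. Most members were rare: 1165 had between 1 and 9 counts and 176 had none. The 246 members with at least 10 counts held 82.6% of the member counts, and only these were tested singly.

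Counts were unevenly spread over the classes of subunit. All members together reached 1125, 1399, 1123 and 1091 counts per 100000, with a control mean of 1262 ± 194 (SD, n = 2) and a knockdown mean of 1107 ± 22.4 (SD, n = 2). Without PPP4R1, the host with most counts, the sums were 644, 763, 765 and 767. Regulatory subunits of PP2B, PP4 and PP6 took 675, 901, 714 and 694 per 100000, and scaffold and regulatory subunits of PP2A took 120, 140, 157 and 146. The PP2A sums of the knockdown libraries lay above both controls, whereas those of the other regulatory class overlapped. Regulatory subunits of PP1 had 174, 201, 132 and 117 per 100000 and catalytic subunits 130, 139, 106 and 119, both classes with the knockdown libraries below the controls. Non-coding and pseudogene hosts had 26.5, 17.6, 13.8 and 15.1 per 100000. On this scale 36.7% of all genes with at least 10 counts were lower without overlap and 15.3% were higher. With scaling by library totals, the median log2 fold change over all genes was -0.58. The class sums were not tested and are a description.

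At the level of host genes, 1 PPP gene, PPP4R3B, was called higher in the knockdown cells. No PPP gene was called lower, nor was any other gene tested. Counts were summed over all circles that named a gene and tested with edgeR's quasi-likelihood test over 8379 genes with at least 10 counts, with Benjamini-Hochberg adjustment and a threshold of 0.05. Of 60 PPP genes, 39 reached 10 counts and 1 was called, beside 37 of all genes tested (0.442%), all of them higher. DESeq2 called 2 PPP genes (5.13%), PPP4R3B and PPP4R3A, beside 2.2% of all genes; it gave an adjusted p to 26 of the 39 PPP genes and to 3830 of all genes. At an unadjusted p under 0.05 there were 4 PPP genes (10.3% of 39), all higher, beside 13.8% of all genes in either direction and 7.58% in the higher direction. The groups did not overlap for 9 PPP genes that were higher (23.1%, beside 15.3% of all genes) and for 11 that were lower (28.2%, beside 36.7%). The median log2 fold change was 0.14 over the 39 PPP genes and -0.26 over all genes. Scaling by library totals in place of the TMM normalization moved the median of all genes to -0.58, so a log2 fold change near 0 has no settled direction here.

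**Figure D1:**
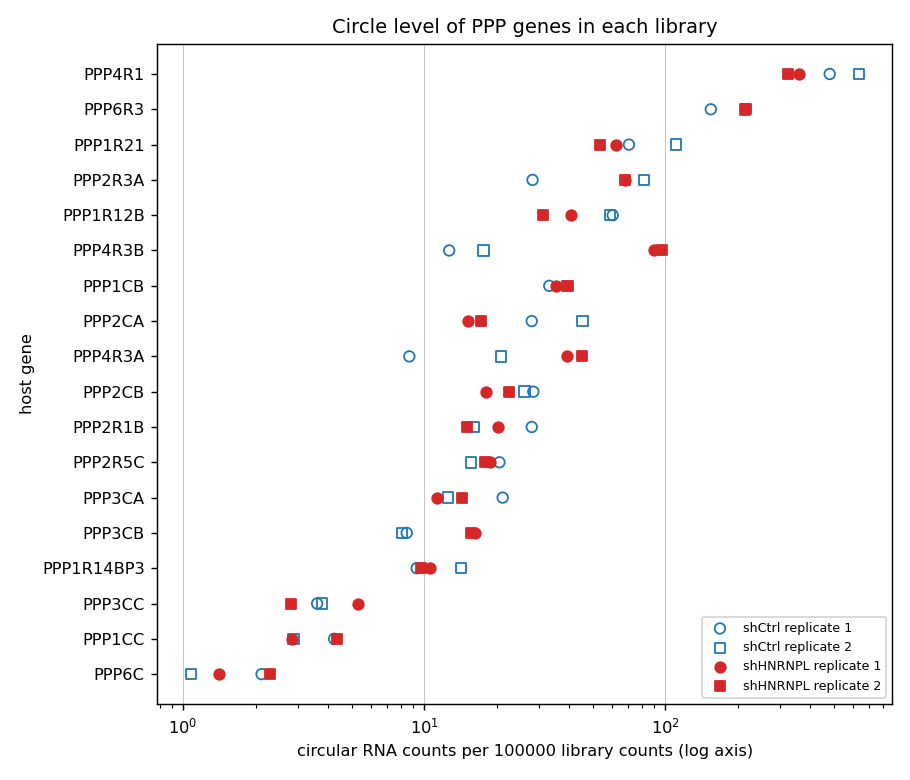
Circular RNA level of the catalytic subunit genes with at least 10 counts, PPP6R3 and the PPP genes with most counts. Values are counts per 100000 library counts on a logarithmic axis, with 1 symbol per library. In PPP4R3B both knockdown libraries (90.2 and 97.0) lie far above both controls (12.7 and 17.6), while in genes such as PPP2R3A and PPP2R1B the groups overlap.

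**Figure D2:**
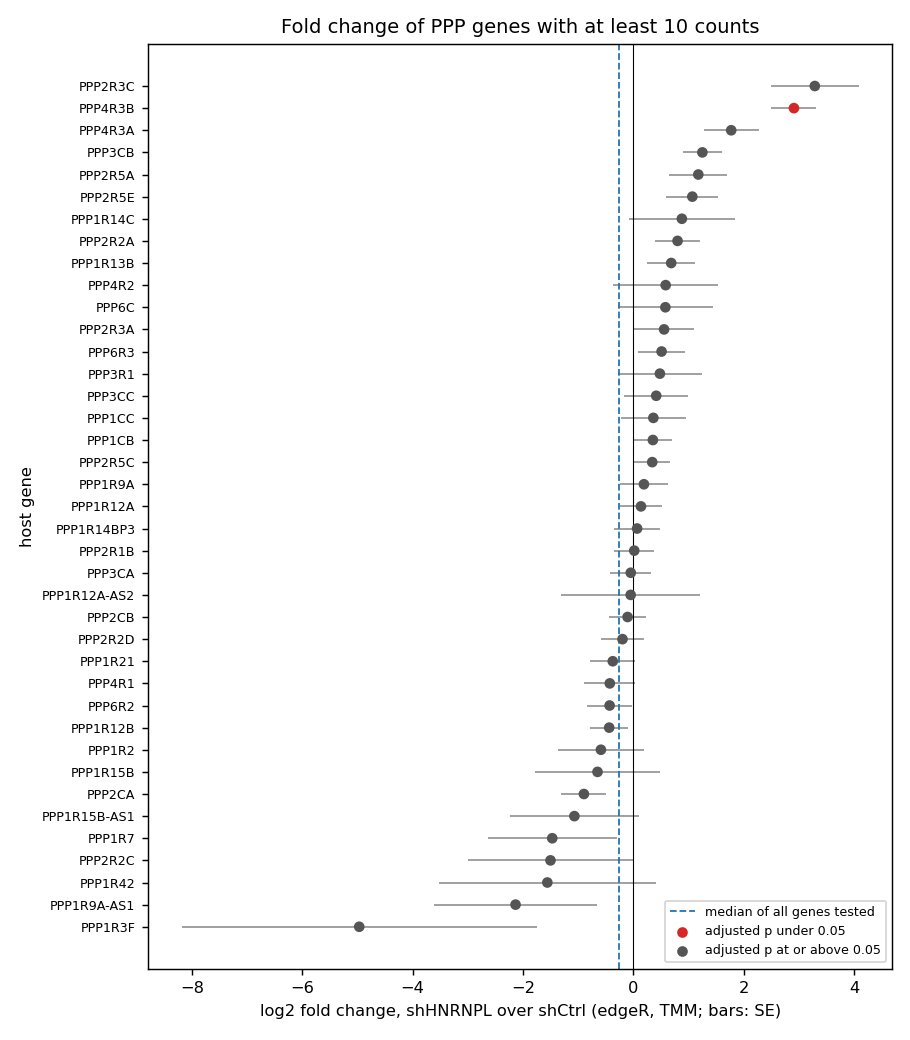
log2 fold change of summed circle counts, shHNRNPL over shCtrl, for the 39 PPP genes with at least 10 counts, from edgeR's quasi-likelihood fit. Bars are the SE, the dashed line is the median of all genes tested (-0.26), and PPP4R3B, in red, is the gene with an adjusted p under the threshold.

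Of the 11 catalytic subunit genes, 9 hosted circles; PPP1CA and PPP4C named no member. PPP1CB, the beta catalytic subunit of PP1, had 156, 218, 100 and 155 counts, or 33.0, 39.2, 35.4 and 39.7 per 100000. The groups overlapped (log2 fold change 0.35 ± 0.35 SE, edgeR's adjusted p = 0.676). Of its 9 circles with at least 10 counts, 3 were higher and 3 lower without overlap (33.3% each), beside 23.2% and 22.9% of all circles. The circle chr2:28752038-28799433 of 8 exons had 52, 72, 10 and 13 counts, while chr2:28776851-28793997 of 6 exons had 14, 27, 21 and 53. Both knockdown libraries lay below the controls in the first and above them, per 100000, in the second. For the first the log2 fold change was -1.85 ± 0.39 (SE) (adjusted p = 0.140 in edgeR and 0.0145 in DESeq2). Whether the circles of PPP1CB changed unequally gave an adjusted p of 0.0899 (edgeR's F test of circle use, described with PPP6R3). Only 6.52% of the PPP1CB counts came from circles annotated with that gene alone; the rest also named SPDYA, whose RefSeq span starts at 28810834, beyond the end of PPP1CB at 28802940. All 9 PPP1CB circles with at least 10 counts lay within the PPP1CB span. Restricted to circles that named PPP1CB alone, the log2 fold change was -2.67, from that small part of the counts, and did not pass (edgeR's adjusted p = 0.255).

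The catalytic subunits of PP2A came next in counts. PPP2CA, the alpha subunit, had 132, 252, 43 and 67 counts (27.9, 45.3, 15.2 and 17.2 per 100000). Both knockdown libraries were below both controls, but the log2 fold change of -0.90 ± 0.41 (SE) did not pass (edgeR's adjusted p = 0.383). Without shCtrl replicate 2 it was -0.21, and without shCtrl replicate 1 it was -1.31. None of the PPP2CA counts came from circles that named PPP2CA alone. Of its 5 circles with at least 10 counts 4 were lower without overlap, beside 22.9% of all circles, and the most abundant, chr5:134199086-134206131, held 60.9% of the gene's counts, with 70, 170, 20 and 41. PPP2CB, the beta subunit, had 134, 145, 51 and 88 counts, and a single circle of 6 exons and 852 nt held 80.1% of them. That circle reached 20.3, 22.3, 16.3 and 17.7 per 100000, and neither the circle nor the gene passed (adjusted p = 0.566 and 0.914 in edgeR's test). How reads that match both of these close paralogs were assigned is not given in the sources used here.

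Among the catalytic subunits of calcineurin, the phosphatase activated by calcium and calmodulin, PPP3CB stood highest in fold change. PPP3CB had 40, 45, 46 and 61 counts, or 8.47, 8.08, 16.3 and 15.6 per 100000, so both knockdown libraries were above both controls (log2 fold change 1.25 ± 0.36 SE; edgeR's adjusted p = 0.202). Its circle chr10:73454412-73479517 of 9 exons had 3, 4, 19 and 19 counts, with an adjusted p of 0.119 in edgeR and 0.00692 in DESeq2. PPP3CA had 100, 70, 32 and 56 counts and PPP3CC 17, 21, 15 and 11, and the groups overlapped in both. The remaining catalytic genes were sparse. PPP1CC, the gamma subunit of PP1, had 20, 16, 8 and 17 counts, PPP6C, the catalytic subunit of PP6, had 10, 6, 4 and 9, and PPP5C had 3, 2, 0 and 2. No difference was detected in PPP1CC or PPP6C (edgeR's adjusted p = 0.813 and 0.796), and PPP5C was below the count minimum.

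PPP4R3B and PPP4R3A are paralogous regulatory subunits of PP4 that recruit substrates to the enzyme. PPP4R3B had 60, 98, 255 and 379 counts, although the knockdown libraries held fewer counts in all. Per 100000 this was 12.7, 17.6, 90.2 and 97.0, and both knockdown libraries lay far above both controls. The control mean was 15.2 ± 3.47 (SD, n = 2) and the knockdown mean 93.6 ± 4.85 (SD, n = 2), a ratio of 6.18. On the log2 scale the fold change was 2.91 ± 0.41 (SE) and edgeR's adjusted p was 0.0388; over all alternatives the adjusted p ranged from 7.09e-46 to 0.919. The call was lost without shHNRNPL replicate 1 (log2 fold change 2.99, adjusted p = 0.919), without shHNRNPL replicate 2 (2.82, adjusted p = 0.911) and with the newer dispersion method of edgeR (2.91, adjusted p = 0.0874). Without shCtrl replicate 1 the log2 fold change was 2.58, and without shCtrl replicate 2 it was 3.45.

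The higher level of PPP4R3B was not confined to a single circle. The gene had 87 detected circles, of which 19 had at least 10 counts, 14 exonic and 5 intronic, all within its RefSeq span on chromosome 2, minus strand (GRCh38.p14). All 19 had a log2 fold change above 0, between 0.54 and 6.69, and in 17 both knockdown libraries lay above both controls (89.5%, beside 23.2% of all circles). The minimum is a total over the libraries, and most counts of this gene came from the knockdown, so the filter itself favours circles that are higher there. Circles of a single gene are also not replicates, so these shares are a description. None passed edgeR's test singly, beside 0% of all circles. At an unadjusted p under 0.05 there were 11 of the 19, all higher, beside 9.29% of all circles in that direction. DESeq2 called 8, beside 5.03% of all circles. The same limits of filter and replication hold for these counts. The most abundant was chr2:55558775-55588956, 12 exons and 1533 nt, with 2, 15, 30 and 60 counts. The circle chr2:55598416-55604076, made of 2 exons, had 2, 9, 28 and 31 counts, and chr2:55558775-55573777, made of 5, had 5, 6, 16 and 42. In 2 circles both controls were at 0: chr2:55564313-55588956 had 0, 0, 7 and 14 counts, at least 5.16-fold higher in the knockdown against a floor of 3 counts per library, and chr2:55577315-55588956 had 0, 0, 8 and 10, at least 4.59-fold higher. The test of circle use did not call PPP4R3B (adjusted p = 0.533), so no unequal change among its circles was detected.

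**Figure D3:**
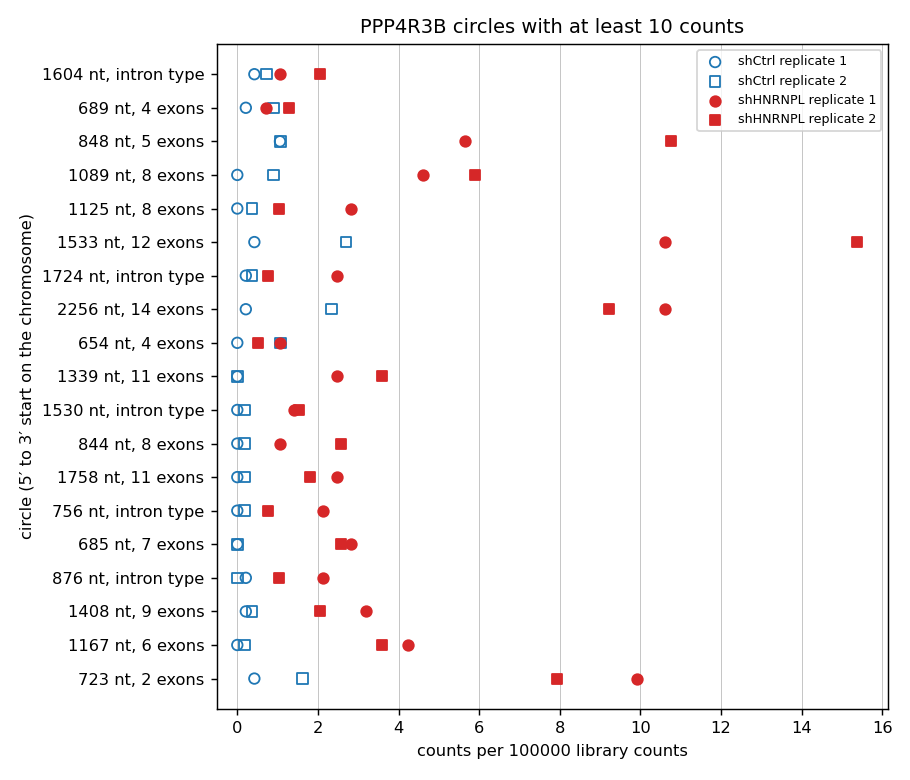
The 19 PPP4R3B circles with at least 10 counts, each labelled by length and exon number, with the level in each library in counts per 100000. Filled symbols (knockdown) lie to the right of both open symbols (control) in 17 circles, and the groups overlap in the circles of 689 and 654 nt.

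PPP4R3A had 41, 116, 111 and 177 counts, or 8.68, 20.8, 39.3 and 45.3 per 100000, with both knockdown libraries above both controls. Its log2 fold change of 1.77 ± 0.50 (SE) did not pass in edgeR (adjusted p = 0.198) but did in DESeq2 (adjusted p = 0.0488). It was 1.19 without shCtrl replicate 1 and 2.85 without shCtrl replicate 2. Most of its counts came from a pair of circles that share an end at 91481576 on chromosome 14. The one of 2 exons, ending at 91485730, had 8, 42, 40 and 76 counts, and the one of 3 exons, ending at 91490802, had 6, 37, 44 and 68. In both, shCtrl replicate 1 was the lowest library, and per 100000 counts both knockdown libraries were above both controls.

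PPP4R1, another regulatory subunit of PP4, held 39.4% of all member counts. It had 2272, 3542, 1011 and 1265 counts, or 481, 636, 358 and 324 per 100000. Both knockdown libraries were below both controls, but the log2 fold change of -0.43 ± 0.46 (SE) did not pass (edgeR's adjusted p = 0.706) and turned to 0.067 without shCtrl replicate 2. A single circle of 7 exons and 866 nt, chr18:9583117-9595153 on the minus strand, held 64.9% of the gene's counts, with 1467, 2431, 590 and 760. It was the most abundant of the members and took 27.6%, 31.2%, 18.6% and 17.8% of all member counts. Its level was 311, 437, 209 and 195 per 100000, and its log2 fold change was -0.93 ± 0.27 (SE; adjusted p = 0.235 in edgeR and 0.00813 in DESeq2). Of 43 PPP4R1 circles with at least 10 counts, 14 were lower (32.6%, beside 22.9% of all circles) and 6 higher (13.95%, beside 23.2%) without overlap, and circle use was not called (adjusted p = 0.371). The circle chr18:9570157-9577191, of 2 exons, had overlapping groups at 15.0, 21.6, 19.1 and 14.1 per 100000.

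PPP6R3 encodes a regulatory subunit of PP6, the phosphatase that restrains Aurora A kinase on the mitotic spindle. Its summed level differed between the groups by less than between the controls, but the circles that made up the sum changed by unequal amounts. The gene had 730, 1194, 608 and 847 counts, or 155, 215, 215 and 217 per 100000 (log2 fold change 0.51 ± 0.43 SE; edgeR's adjusted p = 0.613), and this sum gave 0.17 without shCtrl replicate 1 and 1.05 without shCtrl replicate 2. Circle use was tested with diffSpliceDGE of edgeR, which asks by an F test whether the circles of a gene changed by unequal amounts. Of 2672 genes with several circles, 118 were called (4.42%); of 22 PPP genes 1 was called, PPP6R3, with 56 circles and an adjusted p of 2.9e-05. The call was lost without shHNRNPL replicate 1 and without shHNRNPL replicate 2. These fits leave 1 knockdown library, and nearly all calls of circle use over all genes were lost in them. The PPP6R3 call was also lost without the single circle described next (adjusted p = 0.0596), an alternative added after the data had been seen. It was kept without shCtrl replicate 1 and without shCtrl replicate 2. Over the alternatives with all 4 libraries, the adjusted p of the F test or Simes method ranged from 1.1e-11 to 0.0596.

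The PPP6R3 circle with the smallest p was chr11:68519501-68537891, on the plus strand, made of an exon of 151 nt and an exon of 233 nt. It had 0, 0, 66 and 89 counts. Neither control library held it and both knockdown libraries did, at 23.3 and 22.8 per 100000. Against a floor of 3 counts in each control library it was at least 39.3-fold higher. Its adjusted p in edgeR's test of single circles was 0.0880, and no circle of the 21576 had a smaller one. In DESeq2 it was 9.28e-08, and over all alternatives it ranged from 1.64e-29 to 0.695. Its first exon spans 68519501 to 68519651 and its second 68537659 to 68537891 (GRCh38.p14). With 384 nt it was the shortest PPP6R3 circle with at least 10 counts.

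Both ends of this circle were also used by other PPP6R3 circles, and the ends differed in how their use moved. The acceptor at 68519501 served 17 circles and took 40.2%, 42.8%, 58.8% and 58.9% of the counts of exonic PPP6R3 circles. The donor at 68537891 took 2, 7, 77 and 98 counts, which is 0.334%, 0.618%, 13.3% and 12.1%. That donor was thus nearly unused in the control circles, although the acceptor of the same exon, at 68537659, took 12.2%, 10.9%, 13.0% and 13.3%. The donor served 2 other circles: chr11:68505145-68537891 had 1, 2, 11 and 9 counts, and chr11:68515028-68537891 had 1, 5, 0 and 0, most of the donor's control counts and the opposite direction. The next donor, at 68545024, took 0, 2, 13 and 20 counts. With it were formed chr11:68537659-68545024, with 0, 0, 7 and 8 counts, and chr11:68519501-68545024, with 0, 0, 4 and 9, at least 3.85-fold and at least 3.17-fold higher against the floor. The remaining circle at that donor, chr11:68505145-68545024, had 0, 2, 2 and 3. At the far end the donor at 68596218 took 14.7%, 15.9%, 7.09% and 7.02%, and the acceptors at 68567014 and 68569748 took 8.18%, 10.2%, 3.11% and 3.08%, and 8.18%, 8.83%, 3.81% and 4.93%. In each of these 3 ends both knockdown libraries were below both controls. Shares of donors, and of acceptors, sum to a whole within a library, so a gain at one lowers the others. As levels, the donor at 68596218 had 18.6, 32.3, 14.5 and 14.6 counts per 100000 and the acceptor at 68567014 had 10.4, 20.8, 6.37 and 6.40. The acceptor at 68569748 had 10.4, 18.0, 7.78 and 10.2, so shHNRNPL replicate 2 was barely below shCtrl replicate 1 there. Counts per 100000 are themselves shares of a library, and with scaling by library totals the median log2 fold change of all circles was -0.36.

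**Figure D4:**
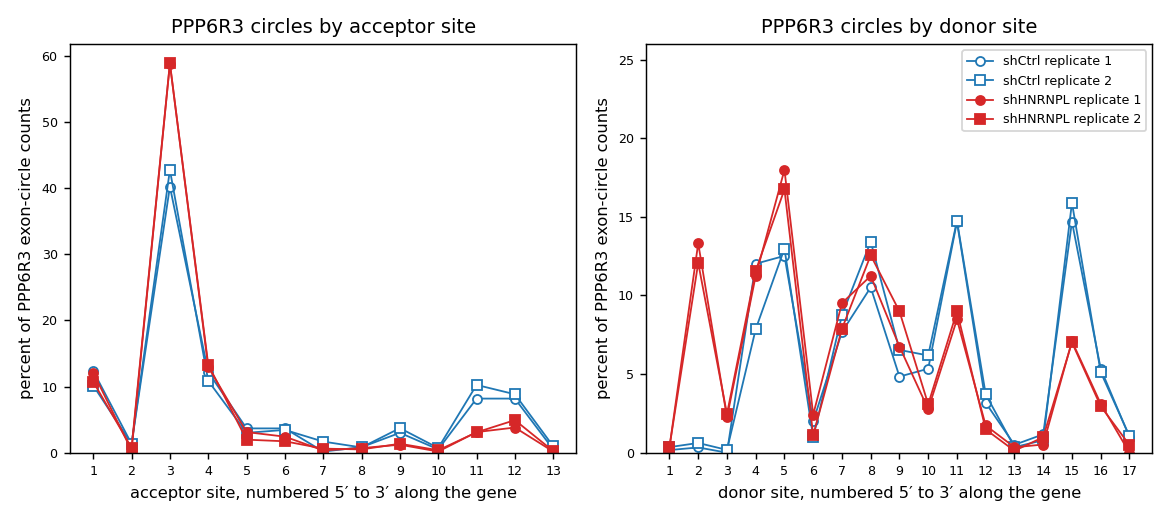
Share of exonic PPP6R3 circle counts, in percent, that used each acceptor (left) and each donor (right), numbered along the direction of transcription among ends with at least 10 counts, with 1 line per library. The second donor, at 68537891, stands at 13.3% and 12.1% in the knockdown libraries and at 0.334% and 0.618% in the controls, and the fifteenth, at 68596218, is lower in both knockdown libraries.

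PPP6R3 circles were also summed on either side of the acceptor 68537659, a division that was chosen after the values had been seen and is given without a test. The 34 circles that started at or before it summed to 86.4, 128, 172 and 169 per 100000, and 10 were higher and 2 lower without overlap while 22 overlapped. Leaving out the circle of 384 nt, the other 33 summed to 86.4, 128, 148 and 146. The 22 circles that started after it summed to 38.3, 55.9, 25.5 and 25.1, and 9 were lower and none higher without overlap while 13 overlapped. Over all 56 circles, 10 were higher (17.9%), 11 lower (19.6%) and 35 overlapped, beside 23.2% of all circles that were higher and 22.9% that were lower without overlap.

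The most abundant PPP6R3 circle, chr11:68519501-68551186 of 5 exons, reached 12.5, 19.9, 31.1 and 29.4 per 100000 (log2 fold change 0.87 ± 0.33 SE; edgeR's adjusted p = 0.337). Its neighbour of 4 exons, chr11:68519501-68548204, had 8.47, 4.85, 12.4 and 14.3, again with both knockdown libraries above both controls. Of the longer circles from the same acceptor, chr11:68519501-68571104 of 11 exons had 2.96, 5.03, 5.31 and 11.3, with both knockdown libraries above both controls. The groups overlapped in chr11:68519501-68558679 of 7 exons, with 5.93, 14.4, 14.5 and 9.99, and in chr11:68519501-68576043 of 13 exons, with 8.26, 12.8, 9.20 and 9.47. In the downstream part, the circle chr11:68558566-68596218 of 12 exons had 2.75, 4.31, 0.707 and 0.768 per 100000 (log2 fold change -2.24 ± 0.62 SE; edgeR's adjusted p = 0.210), and chr11:68567014-68596218 of 10 exons had 5.72, 12.4, 4.60 and 4.10. In both, the knockdown libraries lay below both controls. One circle, chr11:68519501-68644024, classed as intronic, ended beyond the RefSeq end of PPP6R3 at 68615334, and its groups overlapped.

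**Figure D5:**
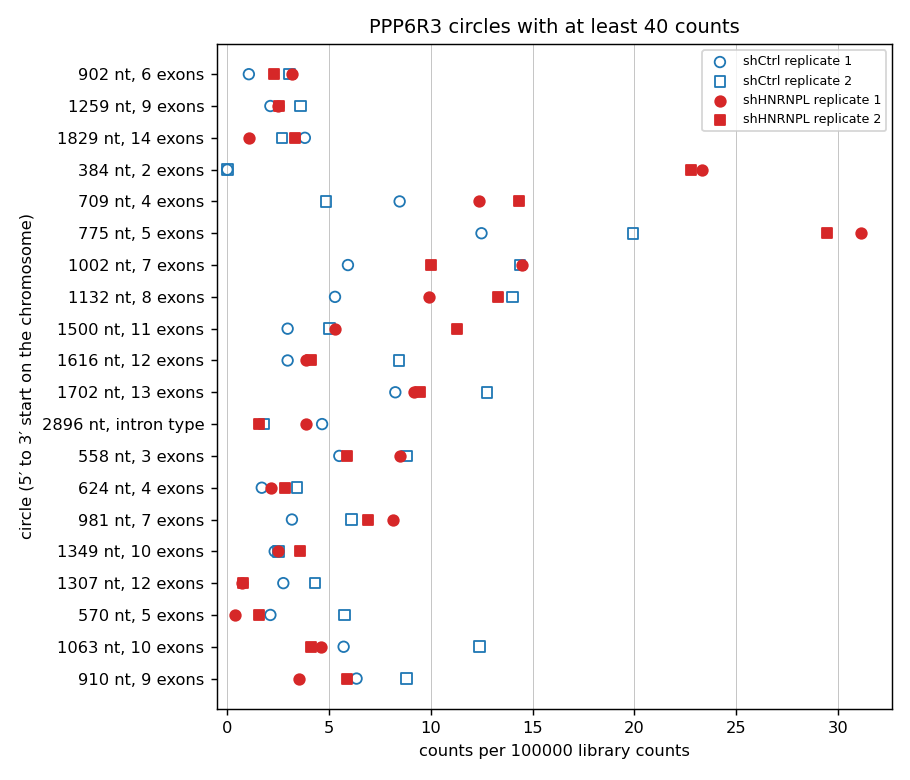
PPP6R3 circles with at least 40 counts, ordered by start and labelled by length and exon number, with the level in each library in counts per 100000. The circle of 384 nt is at 0 in both controls and at 23.3 and 22.8 in the knockdown libraries, and the 4 circles at the bottom, which start furthest downstream, are lower in both knockdown libraries.

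Among regulatory subunits of PP2A, 12 of 14 listed genes hosted circles, 9 reached 10 counts and none was called by edgeR, beside 0.442% of all genes. At an unadjusted p under 0.05 there was 1 of the 9, higher, beside 7.58% of all genes in that direction. DESeq2 called 0 of the 8 to which it gave an adjusted p, beside 2.2% of all genes. PPP2R3A, a calcium-binding subunit, had 133, 454, 192 and 267 counts, or 28.2, 81.6, 67.9 and 68.4 per 100000, and the knockdown libraries lay between the controls. Its log2 fold change of 0.56 turned to -0.094 without shCtrl replicate 1 and was 1.84 without shCtrl replicate 2. A single-exon circle of 2435 nt, chr3:136001059-136003493, held 50.4% of its counts, with 40, 209, 116 and 162. PPP2R1B, the beta scaffold, had 132, 89, 57 and 59 counts and PPP2R5C, a subunit of the B56 class, had 97, 87, 53 and 70, and the groups overlapped in both. PPP2R3C, named here after its values had been seen, had 1, 8, 21 and 27 counts, and its log2 fold change was 3.29 ± 0.79 (SE; adjusted p = 0.151 in edgeR and 0.0571 in DESeq2). Without shCtrl replicate 1 it was 2.45, and without shCtrl replicate 2 it was 5.40. PPP2R1A, the alpha scaffold, had 7 counts, all in shCtrl replicate 1.

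Of 22 regulatory genes of PP1, 11 reached 10 counts. None passed edgeR's test, beside 0.442% of all genes, or had an unadjusted p under 0.05, beside 13.8%. DESeq2 called 0 of the 5 to which it gave an adjusted p, beside 2.2% of all genes. Their median log2 fold change was -0.44, beside -0.26 over all genes. PPP1R21, which also belongs to an endosomal mRNA transport complex, had 334, 616, 176 and 209 counts, or 70.7, 111, 62.2 and 53.5 per 100000. Both knockdown libraries were below both controls (log2 fold change -0.37 ± 0.41 SE; edgeR's adjusted p = 0.712), but the sign turned without shCtrl replicate 2 (0.27). Of its 32 circles with at least 10 counts, 14 were lower (43.8%, beside 22.9% of all circles) and 3 higher (9.38%, beside 23.2%) without overlap. The lowest p among them belonged to chr2:48451008-48498735 of 17 exons, with 2.33, 5.03, 0.354 and 0.768 per 100000 (edgeR's adjusted p = 0.213). PPP1R12B, a myosin phosphatase targeting subunit, had 286, 329, 115 and 121 counts, or 60.5, 59.1, 40.7 and 31.0 per 100000 (log2 fold change -0.44 ± 0.34 SE; edgeR's adjusted p = 0.585). Its circle of 11 exons, chr1:202427040-202449171, had 24.6, 24.6, 13.1 and 10.8 per 100000, with close controls and both knockdown libraries below them (log2 fold change -1.11 ± 0.36 SE; edgeR's adjusted p = 0.263). Only 15.7% of the PPP1R12B counts came from circles that named no other gene. The pseudogene symbol PPP1R14BP3 had 44, 79, 30 and 38 counts, all from circles that also named ELF2.

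Over all single circles, edgeR's test called 0 of 246 members and 0 of 21576 circles (0%). At an unadjusted p under 0.05 there were 36 members (14.6%), beside 13.6% of all circles; 25 were higher (10.2%, beside 9.29%) and 11 lower (4.47%, beside 4.26%). DESeq2 called 14 members (5.69%), beside 5.03% of all circles: 8 from PPP4R3B, 2 from PPP4R3A and 1 each from PPP6R3, PPP3CB, PPP1CB and PPP4R1. The shares of members were thus close to those of all circles. The groups did not overlap in 56 higher members (22.8%, beside 23.2%) and in 62 lower members (25.2%, beside 22.9%).

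Genes that act with these phosphatases but carry other symbols were taken from a list of 52, of which 34 reached 10 counts. edgeR called 0 of them, and DESeq2 called 0 of the 23 to which it gave an adjusted p; the share called over all genes was 0.442% in edgeR. At an unadjusted p under 0.05 there were 1 higher and 3 lower of the 34, beside 7.58% of all genes higher and 6.19% lower. The median log2 fold change was -0.07, beside -0.26 over all genes. MASTL, the kinase that inhibits PP2A in mitosis through ENSA and ARPP19, had 442, 815, 423 and 630 counts (log2 fold change 0.65 ± 0.43 SE; edgeR's adjusted p = 0.508). RIF1, which brings PP1 to replication origins, had 384, 674, 464 and 535 counts, or 81.3, 121, 164 and 137 per 100000, with both knockdown libraries above both controls (adjusted p = 0.413). CIP2A, an inhibitor of PP2A, had 38, 90, 9 and 13 counts (log2 fold change -1.62 ± 0.55 SE; adjusted p = 0.271), and RRP1B, a nucleolar partner of PP1, had 14, 25, 0 and 2. MOB4, of the STRIPAK complex of PP2A, had 6, 4, 7 and 13 counts (adjusted p = 0.363). ENSA, 1 of the 3 lower genes at an unadjusted p under 0.05, had 42 counts in shCtrl replicate 1 and none in the other libraries. Its lower level thus rested on shCtrl replicate 1 alone. NFATC3, a transcription factor that calcineurin activates, had 957, 932, 455 and 553 counts and a log2 fold change of 0.03.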

How the data were processed

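Raw counts per circle, that is, per back-splice position, were deposited by the authors for 4 nanopore libraries, as whole numbers without normalization. Rows carry the name of CIRI-long, a caller of circular RNA, per the file headers and columns. The build is GRCh38.p14, per the submitters' processing notes, which also name DESeq2 without a role; base caller, aligner and filters are not given in the sources used here. Coordinates count from 1 and include both ends.

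Member counts were summed per gene, with a circle that names several genes counted for each. Genes, circles (at least 10 counts over the libraries) and circle use were tested over the whole table with edgeR 4.0.16 in R 4.3.3 (quasi-likelihood test, default dispersion, TMM; diffSpliceDGE for use), with Benjamini-Hochberg adjustment and a threshold of 0.05. DESeq2 1.42.0 was an alternative, and adjusted p-values it left empty stayed empty. SEs of log2 fold changes came from the F statistic. The fits were run on simulated counts, where recovery of fold changes was required only at a low dispersion. That check does not show how often real changes are called in these data.

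Named genes were the catalytic subunits, PPP6R3, the 15 members with most counts and those past the threshold. Named circles were the 10 with most counts, the 5 of smallest p in each direction and PPP6R3 circles with at least 40 counts. Members and lists were chosen with earlier results of these data known; other items were named after their values were seen, among them the circles that share an end with a named PPP6R3 circle, the most abundant or most changed circles of PPP4R3B, PPP4R3A and PPP1CB, and the partner genes. RefSeq's table held 59 of the 60 symbols.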

Additional observations from a re-analysis of the deposited data

How the results depend on the processing

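The count of PPP genes past the threshold (1) became 2 with DESeq2 (5.13%, beside 2.2% of all genes) and 3 with no filter on low counts (5%, beside 2.49%). It became 0 with the newer dispersion method of edgeR, beside 0% of all genes. There 4 PPP genes (10.3%) and 15.1% of all genes had an unadjusted p under 0.05. The count of PPP circles (0) became 14 by DESeq2's test (5.69%, beside 5.03% of all circles) and 2 unfiltered (0.142%, beside 0.248%). It became 19 where 2 libraries each had 5 counts or more (12.1%, beside 12.1% of all circles) and 7 with at least 40 counts (9.33%, beside 11.4%). The count of PPP genes with changed circle use (1) became 2 with at least 5 counts in each of 2 libraries (13.3%, beside 20.8%), 3 with at least 40 counts (27.3%, beside 16.1%) and 0 without the PPP6R3 circle of smallest p. With replicate numbers as a block (replicate block), these 3 counts were 3 (7.69%, beside 3.58% of all genes), 17 (6.91%, beside 7.51% of all circles) and 5 (22.7%, beside 24.3%); same-numbered libraries deviated from their group means with a correlation of 0.0706 over 4944 circles, so the numbers are used as names only. Leaving out each library in turn gave 0 to 11 genes, 0 to 56 circles and 0 to 8 genes with changed use. The high counts came without shCtrl replicate 1 (10, 56 and 8, or 26.3%, 23.7% and 38.1%, beside 20.4%, 22.6% and 46% of all features) or 2 (11, 56 and 7, or 28.2%, 23% and 31.8%, beside 33.4%, 29.9% and 46.7%), when the lone control is assumed to vary like the knockdown pair, and no gene was called without either knockdown library. The summed level differed by -155 counts per 100000, between -292 and -17.9 with each library left out.

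Log2 fold changes that turned sign were those of genes and circles that did not pass. PPP1CB was -2.67 with circles naming 1 gene. PPP2R1B was -0.32 with library-size scaling, -0.044 with no filter and -0.029 with at least 40 counts, and PPP1R14BP3 was -0.21 with library-size scaling and -0.028 with exonic circles. Leaving out each library gave -0.74 to 0.067 for PPP4R1, -0.78 to 0.27 for PPP1R21, -0.094 to 1.84 for PPP2R3A, -0.31 to 0.10 for PPP2CB, -0.17 to 0.28 for PPP2R1B, -0.27 to 0.21 for PPP3CA, -0.32 to 0.68 for PPP1R14BP3, -0.031 to 0.65 for PPP1CC, -0.052 to 0.79 for PPP3CC and -0.22 to 0.023 for the PPP4R1 circle chr18:9570157-9577191. For PPP6R3 circles on chromosome 11 it gave -0.045 to 0.84 (68519501-68558679), -0.039 to 0.98 (68519501-68564432), -0.24 to 0.011 (68519501-68576043), -0.12 to 0.21 (68537659-68548204), -0.86 to 0.26 (68519501-68574224), -1.68 to 0.12 (68505145-68576043), -1.03 to 0.71 (68519501-68644024), -0.29 to 0.084 (68505145-68564432), -0.028 to 0.69 (68537659-68571104) and -0.28 to 0.40 (68537659-68551186). The circle 68537659-68548204 was 0.011 with DESeq2 size factors, 0.0077 with DESeq2 and 0.049 with at least 40 counts, and 68537659-68551186 was 0.025 with at least 40 counts. The causes were not tested. With 2 libraries a group, the call of PPP4R3B and that of PPP6R3 circle use both needed both knockdown libraries, as did nearly all calls of these tests.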

Other observations

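Antisense circles over PPP symbols, which are no members, had 628 counts from 173 rows, or 47.4, 28.9, 35.7 and 36.4 per 100000 in shCtrl replicates 1 and 2 and shHNRNPL replicates 1 and 2. Of the 246 PPP circles with at least 10 counts, 12 had all their counts in 1 library. Among the other circles with at least 10 counts that were not antisense, this held for 1871 of 20768. In shCtrl replicate 1 there were 10 of the 12 PPP circles, 9 intronic and 1 exonic, with 10 to 18 counts. They came from PPP1R12A-AS2, PPP1R15B-AS1, PPP1R3F, PPP2R1B, PPP2R2C, PPP2R5E and PPP6R3. In shCtrl replicate 2 there were 2, both intronic, from PPP2R2A and PPP4R1, and in the knockdown libraries there were 0.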
